A study of Mus musculus with 12 samples.

Results

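The transcription factors that specify and maintain photoreceptors were followed across mouse retinas of different genotype. The set held 10 genes, Crx, Nrl, Nr2e3, Rorb, Otx2, Neurod1, Thrb, Rxrg, Esrrb and Mef2d, and was chosen by gene symbol from the 37991 genes of the deposited tables. Retinas came from male mice at 8 weeks of age, in 12 libraries. The F0 mice were C57BL/6J (3 libraries) or Cast/EiJ (3), and the F1 hybrids came from the reciprocal crosses B6xCast (3) and CastxB6 (3). F1 B6xCast mice had a C57BL/6J father and a Cast/EiJ mother, and F1 CastxB6 mice had the reverse. C57BL/6J is the standard inbred laboratory strain and Cast/EiJ is an inbred strain derived from wild mice. No genotype carried a transgene or a targeted allele, and each library was a pool of 6 to 8 retinas.

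Rods and cones arise from shared precursors, and the homeodomain factors OTX2 and CRX act early and broadly in that lineage. NRL and its target NR2E3 direct precursors to the rod fate and hold cone genes down, while the thyroid hormone receptor encoded by Thrb and its partner RXRG act in cones. RORB acts upstream of NRL, and ESRRB, MEF2D and NEUROD1 act with these factors in the differentiated photoreceptor.

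The F1 allelic difference, read within a library, was set beside the F0 strain difference, and what remained of the F0 difference after subtracting the allelic value, on the log2 scale, was taken as the trans component. F0 and F1 libraries also differed in sequencing lanes, 1 for F0 and 2 for F1, and in the transcriptome used for mapping, so the generation and these steps cannot be told apart. Levels are given in count equivalents, a read count that the authors estimated and normalised, and in FPKM, a level per length of transcript. Unique hits are read pairs assigned to a single gene and, in F1, to a single allele.

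The depth was 8158534 to 12363291 unique hits per library. The libraries carried the rod markers Gnat1, Pde6b, Cnga1 and Sag at a summed 297000 to 359460 count equivalents, and X-linked unique hits in F1 came from the maternal allele at 99.36% to 99.53%. Replicate 1 of F0 C57BL/6J, of F0 Cast/EiJ and of F1 B6xCast deviated from their groups in a shared way. In these 3 libraries Neurod1 lay above its group mean by 0.31, 0.27 and 0.20 on the log2 scale, and the Nrl values lay at -0.17, -0.14 and -0.23. Calls that changed without these libraries are given beside the results they touch. Markers of other retinal cells also differed between the F0 strains. The summed ganglion cell markers ranged from 11290 to 12310 count equivalents in C57BL/6J and from 7574 to 8403 in Cast/EiJ, the amacrine markers from 7023 to 8605 and from 9587 to 10380, and the pigment epithelium markers from 184 to 215 and from 72.8 to 111. In Cast/EiJ 3 of 5 ganglion markers were called lower and 3 of 5 amacrine markers higher, against 16.6% and 17.2% of all genes. Only 1 of 5 tested pigment epithelium markers was called lower, and up to 3 of 6 lay under 10 count equivalents in an F0 library. The part of these markers in the results was not tested.

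Promoter sequences show where the known recognition motifs of these factors lie in front of the members themselves. RefSeq promoters on GRCm38.p6 were found for all 10 members, with 17 windows of 250 bases before a transcription start. The homeodomain motif TAATCC, read by CRX and OTX2, was searched on both strands and was present in 3 of the 17 windows and in 6.25% of 32851 windows of all genes. The nuclear receptor core motif AGGTCA was present in 2 of 17 and in 14.0% of all windows. The related motif AAGTCA was present in 1 of 17 and in 13.1% of all. The Maf motif TGCTGA was present in 4 of 17 and in 16.1%, and the E-box CAGATG was present in 2 of 17 and in 14.4%. A match describes letters in the window and says nothing of binding. The 4 windows below are a single window each of Crx, Nr2e3, Thrb and Rorb, with motif matches in capitals, 5′ to 3′ on the strand of the gene. Crx lies on chr7:15879956-15880205 (minus strand), Nr2e3 on chr9:59950080-59950329 (minus), Thrb on chr14:17660710-17660959 (plus) and Rorb on chr19:19111197-19111446 (minus).
Crx: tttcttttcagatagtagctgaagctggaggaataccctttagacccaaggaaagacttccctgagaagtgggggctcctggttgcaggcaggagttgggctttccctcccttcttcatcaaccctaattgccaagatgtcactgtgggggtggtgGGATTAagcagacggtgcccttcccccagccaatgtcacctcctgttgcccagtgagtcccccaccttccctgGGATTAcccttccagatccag
Nr2e3: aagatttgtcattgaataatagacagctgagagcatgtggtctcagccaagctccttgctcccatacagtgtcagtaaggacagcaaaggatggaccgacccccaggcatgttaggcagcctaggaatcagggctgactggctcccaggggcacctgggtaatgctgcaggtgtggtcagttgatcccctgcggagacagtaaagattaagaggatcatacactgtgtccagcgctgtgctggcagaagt
Thrb: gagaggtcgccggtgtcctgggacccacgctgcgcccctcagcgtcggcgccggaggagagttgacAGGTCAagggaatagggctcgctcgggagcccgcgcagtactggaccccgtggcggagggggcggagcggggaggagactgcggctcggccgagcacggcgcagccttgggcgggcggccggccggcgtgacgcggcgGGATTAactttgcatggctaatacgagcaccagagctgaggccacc
Rorb: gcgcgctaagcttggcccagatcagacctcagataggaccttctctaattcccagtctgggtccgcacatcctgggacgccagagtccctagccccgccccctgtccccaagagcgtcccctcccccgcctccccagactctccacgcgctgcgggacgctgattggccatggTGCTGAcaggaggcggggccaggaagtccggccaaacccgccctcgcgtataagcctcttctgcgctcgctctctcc
The Crx window held the homeodomain motif 94 and 21 bases before the start, in its reverse form GGATTA. The Thrb window held AGGTCA 184 bases and GGATTA 46 bases before the start. The Rorb window held TGCTGA 77 bases before the start, and the Nr2e3 window held none of the 5 motifs. Thrb and Rorb each had a further window, at chr14:17981394-17981643 and chr19:19001118-19001367, which is not shown and held none of the 5 motifs.

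Per length, Nrl was the highest of the factors in F0 C57BL/6J retina at 559 ± 65.2 FPKM (SD, n = 3), followed by Crx at 315 ± 43.7 and Nr2e3 at 232 ± 19.6. The ranges of these 3 genes did not overlap. Mef2d, Neurod1 and Esrrb followed at 121 ± 7.75, 116 ± 23.2 and 110 ± 2.92 FPKM, and these neighbours overlapped in range. Otx2 stood at 96.2 ± 2.64, Rorb at 45.0 ± 4.65, Thrb at 14.8 ± 0.541 and Rxrg at 3.06 ± 0.124 FPKM, each apart from the next. The cone factors Thrb and Rxrg were the lowest of the set per length. In F0 Cast/EiJ, Nrl stood at 532 ± 42.7 FPKM and Crx at 372 ± 138, and these overlapped because a single Crx library reached 532. Nr2e3 stood at 288 ± 9.77, overlapping Crx in range and ahead of Mef2d at 138 ± 17.5, Neurod1 at 131 ± 23.5 and Esrrb at 128 ± 8.95, which overlapped, and of Otx2 at 91.2 ± 4.93, Rorb at 29.9 ± 5.90, Thrb at 11.9 ± 0.610 and Rxrg at 2.39 ± 0.300 FPKM.

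**Figure D1:**
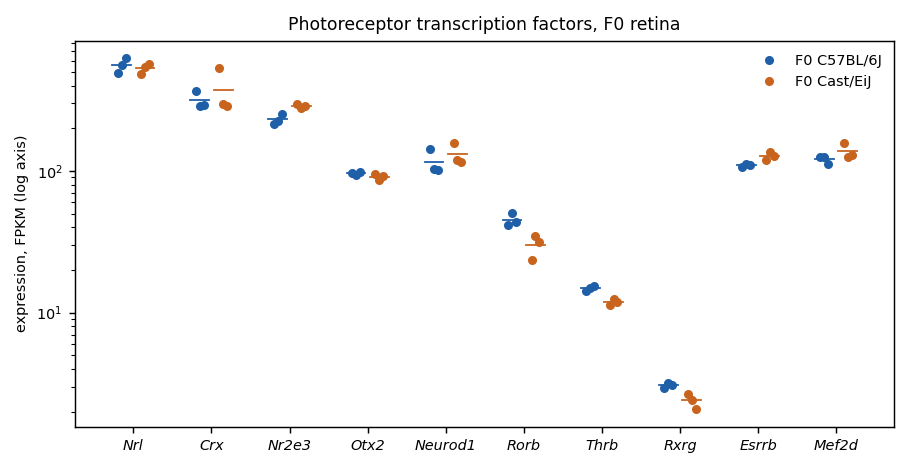
Expression per length in FPKM (log axis) of the 10 factors in the 3 F0 C57BL/6J and 3 F0 Cast/EiJ libraries. Points are libraries and lines are group means. By group mean Nrl sits highest and Rxrg lowest in both strains, and in Cast/EiJ the Nrl and Crx libraries overlap.

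Between the F0 strains, 4 of the 10 factors differed, against 33.8% of the 14452 genes tested. Nr2e3 and Esrrb were higher in Cast/EiJ, as were 17.2% of genes, and Rorb and Thrb were lower, as were 16.6%. The median difference of the 10 was 0.03 on the log2 scale and that of all genes tested was also 0.03. Of all calls, 50.9% were higher in Cast/EiJ, and 36.6% with TMM scaling added, which lowered every F0 difference by 0.08. In bulk retina, fewer cells of a type and less RNA per cell cannot be told apart.

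**Figure D2:**
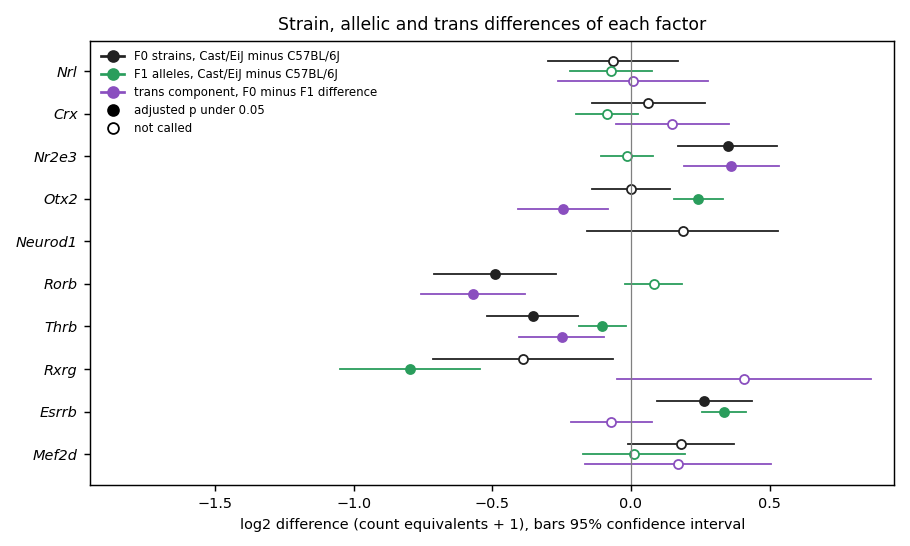
Log2 differences of each factor between F0 strains, between F1 alleles and for the trans component, with 95% confidence intervals and filled points for adjusted p under 0.05. Nr2e3, Rorb and Thrb show the F0 and trans differences together, Esrrb shows F0 and allelic differences, and Neurod1 has the F0 value alone.

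Rorb, the retinoid-related orphan receptor on chromosome 19 at 19005095 to 19185686 (NCBI37), measured 6220, 7140 and 6110 count equivalents in F0 C57BL/6J and 4090, 5090 and 4710 in F0 Cast/EiJ. Every Cast/EiJ library lay below every C57BL/6J library. The level was 1.40-fold lower in Cast/EiJ (log2 -0.49, 95% CI -0.71 to -0.27, limma adjusted p = 0.00496), a call that was lost without a filter on low values (limma adjusted p = 0.0749). In F1 the order was not kept. The C57BL/6J allele ranged from 5180 through a median of 5545 to 5680 and the Cast/EiJ allele from 5560 through 5730 to 6130, over 6 libraries. The allelic difference of 0.08 (-0.02 to 0.18) was not called (limma adjusted p = 0.185), and the trans component was -0.57 (-0.76 to -0.38, limma adjusted p = 0.000333). From F0 to F1 the Cast/EiJ allele rose by 0.33 (limma adjusted p = 0.00182, with 16.5% of genes called) and the C57BL/6J value fell by 0.24 (limma adjusted p = 0.0451, with 3.87% of genes called). Comparisons of this kind set a single normalised F1 allele beside the whole gene in F0, and no alternative setting was run for them. The sign of the allelic difference was opposite on the per-length scale weighted by the posterior SD, at -0.16 (limma adjusted p = 0.0171), and without weights, at -0.16 (limma adjusted p = 0.106).

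Nr2e3, which encodes the rod nuclear receptor that represses cone genes, lies on chromosome 9 at 59790578 to 59808466. It measured 7210, 7050 and 8260 count equivalents in F0 C57BL/6J and 9990, 9260 and 9380 in F0 Cast/EiJ. Here the Cast/EiJ libraries were all above the C57BL/6J libraries, by 1.27-fold (log2 0.35, 0.17 to 0.53, limma adjusted p = 0.00939). That call was lost without a filter (limma adjusted p = 0.0922) and with unweighted log expression (0.31, limma adjusted p = 0.0517). Of the 4 rod markers Sag was called at 1.18, while Pde6b at 0.18, Gnat1 at -0.17 and Cnga1 at -0.20 were not, and their part was not tested. The F1 alleles overlapped. They measured 8810 ± 517 for C57BL/6J and 8723 ± 393 for Cast/EiJ (SD, n = 6), with a difference of -0.01 (-0.11 to 0.08, limma adjusted p = 0.832). The trans component was 0.36 (0.19 to 0.53, limma adjusted p = 0.00604). Without replicate 1 of the 3 groups named above it was 0.31 (limma adjusted p = 0.0537). The F1 C57BL/6J allele was 0.23 above its F0 level (limma adjusted p = 0.0318).

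Thrb, the thyroid hormone receptor beta that drives the medium-wavelength cone opsin, lies on chromosome 14 at 18493474 to 18870602. Its levels were 1490, 1570 and 1630 count equivalents in F0 C57BL/6J and 1150, 1280 and 1240 in F0 Cast/EiJ. The strains did not overlap, and Cast/EiJ was 1.28-fold lower (log2 -0.35, -0.52 to -0.19, limma adjusted p = 0.00570), and the call held in all 18 alternatives. In F1 the C57BL/6J allele stood at 1397 ± 52.4 and the Cast/EiJ allele at 1300 ± 54.0 (SD, n = 6), a difference of -0.10 (-0.19 to -0.02, limma adjusted p = 0.0409). The alleles overlapped in range. That allelic call was lost in 10 of 24 alternatives, among them each cross alone and the fits without any replicate of F1 B6xCast or without F1 CastxB6 replicate 1 or 2. The trans component of -0.25 (-0.40 to -0.10, limma adjusted p = 0.0282) was lost in 7 of 22 alternatives, 6 of them with a library left out. These 6 left out F0 C57BL/6J replicate 2 or 3, F0 Cast/EiJ replicate 1, F1 B6xCast replicate 2 or 3 or F1 CastxB6 replicate 3. In those fits the component lay between -0.25 and -0.21. The summed cone markers Opn1sw, Gnat2, Pde6c, Pde6h and Cnga3 moved with Thrb. They ranged from 9204 to 9991 count equivalents in F0 C57BL/6J, from 6735 to 6858 in F0 Cast/EiJ and from 8038 to 8728 in F1, with 3 of 5 markers called lower in Cast/EiJ and none higher. Of the 13 cone genes tested in the list below, 1 was called higher (Cngb3 at 0.52) and 5 lower, against 17.2% and 16.6% of genes. The part of the cone markers in the Thrb result was not tested.

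Esrrb, an orphan nuclear receptor expressed in rods, lies on chromosome 12 at 87702067 to 87862578. It measured 8170, 8760 and 8530 count equivalents in F0 C57BL/6J and 9440, 11000 and 10200 in F0 Cast/EiJ, all Cast/EiJ libraries being higher. The difference of 0.26 (0.09 to 0.44, 1.20-fold, limma adjusted p = 0.0253) was lost with TMM scaling, at 0.18, with unweighted log expression, with no filter and without each F0 library in turn other than Cast/EiJ replicate 1. The F1 alleles also separated, in every library. The Cast/EiJ allele was at 9293 ± 441 against 7362 ± 244 for the C57BL/6J allele (SD, n = 6), a difference of 0.34 (0.25 to 0.42, 1.26-fold, limma adjusted p = 1.60e-06). Of 32170 allele-specific unique hits, the Cast/EiJ share ran from 54.1% (95% Wilson interval 52.9% to 55.4%) to 56.1% (54.7% to 57.6%) over the 6 libraries. The trans component was not called. The C57BL/6J allele was lower in F1 than in F0 (-0.21, limma adjusted p = 0.0284). For the Cast/EiJ allele the F1 minus F0 difference was -0.13 (-0.24 to -0.03) and was not called (limma adjusted p = 0.0793).

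Otx2, the homeodomain factor upstream of Crx, lies on chromosome 14 at 49277354 to 49287319. The F0 strains overlapped, at 2720, 2710 and 2830 count equivalents in C57BL/6J and 2790, 2640 and 2830 in Cast/EiJ, and the F0 means were 2753 in both. The interval of the F0 difference ran from -0.14 to 0.14. The F1 alleles did separate, with 2600 ± 90.8 for C57BL/6J and 3083 ± 232 for Cast/EiJ (SD, n = 6) and Cast/EiJ higher in 6 of 6 libraries. The allelic difference was 0.24 (0.15 to 0.33, limma adjusted p = 0.000147). By unique hits the Cast/EiJ share ran from 50.1% (47.9% to 52.3%) to 53.5% (51.4% to 55.5%). The trans component of -0.24 (-0.41 to -0.08, limma adjusted p = 0.0431) opposed the allelic difference. Its call was lost in 11 of 22 alternatives. Among them were the fits without each F0 library in turn, or without F1 B6xCast replicate 2 or F1 CastxB6 replicate 1 or 3. It was also lost without the 3 libraries named above (-0.23, limma adjusted p = 0.0608). On the log expression scale the trans component was larger, at -0.39 unweighted and -0.38 with posterior weights (limma adjusted p = 0.00733 and 0.00729).

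Rxrg, the retinoid X receptor gamma, lies on chromosome 1 at 169528515 to 169569754. It measured 111, 125 and 118 count equivalents in F0 C57BL/6J and 90.1 ± 9.98 (SD, n = 3) in F0 Cast/EiJ, where the lowest library was at 81.4 and the median at 87.9. Every Cast/EiJ library lay below the C57BL/6J libraries, yet the difference of -0.39 (-0.72 to -0.06) was not called (limma adjusted p = 0.0654). It was called by edgeR on unique hits at -0.42 (adjusted p = 0.0436), with TMM scaling at -0.47 (limma adjusted p = 0.0337) and without the 3 libraries named above at -0.52 (limma adjusted p = 0.0495). The Cast/EiJ allele was lower in all F1 libraries, at 62.2 ± 12.0 against 108 ± 14.9 (SD, n = 6), a difference of -0.80 (-1.05 to -0.54, limma adjusted p = 3.36e-05). That value rests on few reads. The Cast/EiJ share was 32.1% (17.9% to 50.7%) to 44.7% (30.1% to 60.3%) of 26 to 38 unique hits per library, and only 1 of the 6 intervals excluded 50%. The Cast/EiJ allele was also lower in F1 than in F0 (-0.54, limma adjusted p = 0.0258). The sum of the same cone markers also differed between the F0 groups, and its part was not tested.

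**Figure D3:**
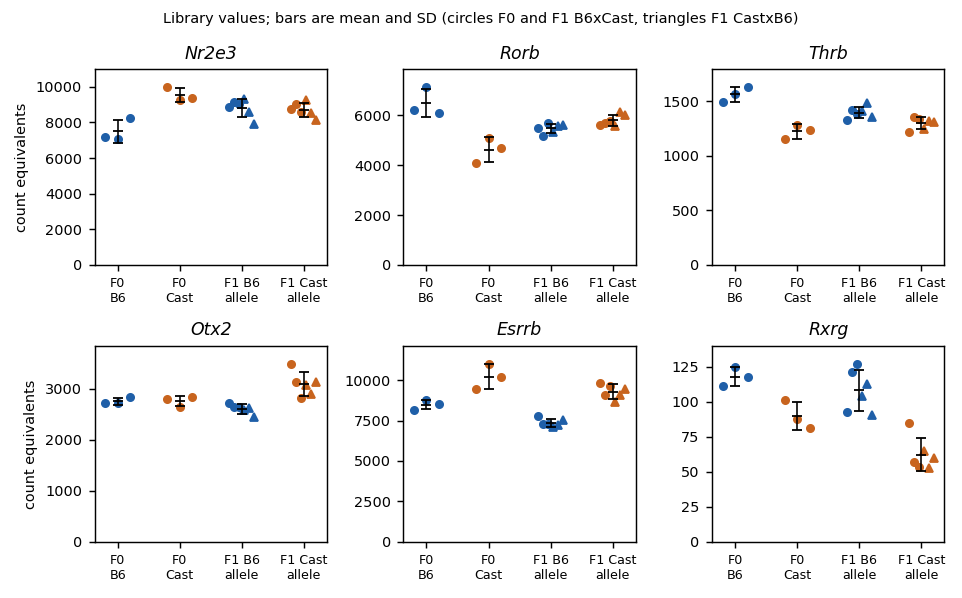
Count equivalents of Nr2e3, Rorb, Thrb, Otx2, Esrrb and Rxrg in every F0 library and for each allele of every F1 library, with mean and SD. The F1 alleles of Nr2e3 overlap, while those of Esrrb do not and the Cast/EiJ allele of Rxrg is the lower in each library.

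Among the F1 alleles, 4 of the 9 factors that could be tested were called, against 47% of 13414 genes. Otx2 and Esrrb were higher for Cast/EiJ, as were 23.5% of genes, and Thrb and Rxrg were lower, as were 23.5%. For the trans component 4 of 9 were called, against 14% of the same genes, with Nr2e3 positive (5.64% of genes) and Rorb, Otx2 and Thrb negative (8.31%). The allelic median of the 9 was -0.01, against 0.00 for all genes, and the trans medians were 0.01 and 0.00. The allelic and the trans values share the F1 libraries, and the trans and F0 values share the F0 libraries.

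Crx, Nrl and Mef2d were called in none of these comparisons as fitted here. Crx, the cone-rod homeobox factor (chromosome 7, 16451296 to 16465317), measured 16100, 14700 and 15300 in F0 C57BL/6J and 18100, 15300 and 14900 in F0 Cast/EiJ. Nrl, the leucine zipper factor of rods (chromosome 14, 56137815 to 56143818), measured 17900, 20200 and 22500 and then 17500, 19600 and 20700. Both genes overlapped between the strains. Their F0 intervals ran from -0.14 to 0.27 for Crx and from -0.30 to 0.17 for Nrl. In F1 the C57BL/6J and Cast/EiJ alleles of Crx stood at 16133 ± 1326 and 15183 ± 952, and those of Nrl at 22200 ± 2049 and 21100 ± 1917 (SD, n = 6). These SDs are over libraries. Within a library the Cast/EiJ minus C57BL/6J allelic log2 difference ran from -0.15 to -0.018 for Crx and from -0.081 to -0.064 for Nrl. The Cast/EiJ share of unique hits was below 50% in 6 of 6 F1 libraries for both, at medians of 48.2% for Crx and 48.0% for Nrl. The median gene stood at 49.5% to 49.6% in each library.

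Mef2d, a MADS-box factor (chromosome 3, 87946294 to 87976008), measured 8300, 8460 and 7720 in F0 C57BL/6J and 10300, 8610 and 8890 in F0 Cast/EiJ. Every Cast/EiJ library was above every C57BL/6J library, but the difference of 0.18 (-0.01 to 0.37) was not called (limma adjusted p = 0.129). For the F1 alleles the measures differed. Count equivalents gave a difference of 0.01, whereas edgeR on unique hits gave -0.17 (adjusted p = 0.00600), with a Cast/EiJ share of 45.2% to 48.9% in 6 of 6 libraries. The posterior SD of the log expression reached 0.284 in F1. By edgeR on unique hits its trans component was 0.33 (adjusted p = 0.00524).

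Neurod1, a basic helix-loop-helix factor (chromosome 2, 79292678 to 79296908), measured 7250, 5320 and 5150 in F0 C57BL/6J and 8030, 6120 and 5960 in F0 Cast/EiJ. The strains overlapped, and the difference of 0.19 (-0.16 to 0.53) was not called (limma adjusted p = 0.372). In both strains replicate 1 was the highest. Without the 3 libraries named above it was 0.21 (limma adjusted p = 0.0398). Neurod1 had 0 allele-specific unique hits in all F1 libraries. Its estimates went almost wholly to a single allele of each library, from 7.95 to 6310 for C57BL/6J and from 723 to 11700 for Cast/EiJ, with a posterior SD of up to 6.03. No allelic or trans value was therefore taken.

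**Figure D4:**
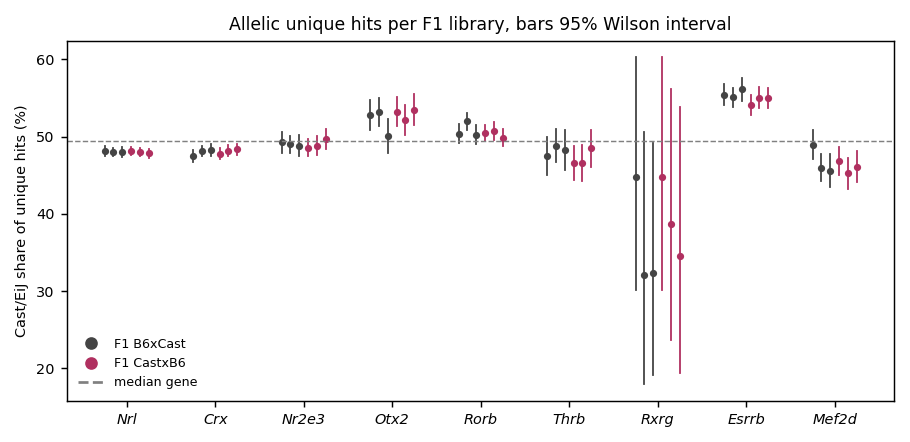
Cast/EiJ share of allele-specific unique hits for 9 factors in each F1 library, with 95% Wilson intervals that cover counting error only, and the median gene as a dashed line. All Esrrb and Otx2 libraries lie above the median gene, Mef2d lies below it, and the Rxrg intervals are wide.

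The reciprocal crosses were compared to ask whether the allelic differences followed the parent of origin. None of the 9 factors was called for the maternal minus the paternal allele by limma, against 0.492% of genes, and 0 of 9 had an unadjusted p under 0.05. EdgeR on unique hits also called 0. The widest interval was that of Rxrg, from -0.27 to 0.23. The allelic differences of Esrrb were 0.35 in B6xCast and 0.32 in CastxB6, those of Otx2 were 0.23 and 0.25, and those of Rxrg were -0.81 and -0.78.

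Genes that act around the factors were read from 4 lists. Their counts stand against 17.2% of all genes called higher and 16.6% lower between F0 strains, 23.5% each way between alleles, and 5.64% positive and 8.31% negative for the trans component. With TMM scaling the F0 medians of the lists fell to -0.25 for cone genes, -0.04 for rod genes, 0.07 for cofactors and -0.18 for relatives. Of the cone genes, 13 of 16 were tested between the F0 strains, 1 was called higher and 5 lower, with a median of -0.17. The cyclic nucleotide-gated channel subunit Cngb3 was higher at 0.52, while Cd59a at -1.91, the channel subunit Cnga3 at -1.21, the short-wavelength opsin Opn1sw at -0.79, Kcne2 at -0.63 and the cone phosphodiesterase Pde6c at -0.46 were lower. For the trans component, 11 cone genes were tested and 5 were lower and 0 higher by limma, with a median of -0.29. These were Cd59a, Cnga3, Kcne2, Opn1sw and Pde6c. Among the cone genes the F1 alleles split, with 3 higher (Gnb3, Sall3, Cngb3) and 3 lower (Cd59a, Cnga3, Opn1sw) for Cast/EiJ.

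Of the rod phototransduction and outer segment genes, 29 were tested between the F0 strains, with 7 higher, 2 lower and a median of 0.04. The arrestin gene Sag at 1.18 and the transducin gamma subunit Gngt1 at 1.04 were highest, and the G protein regulator Rgs9 at -0.32 and the phosducin gene Pdc at -0.23 were the genes that were lower. Between alleles 10 were higher and 7 lower for Cast/EiJ. For the trans component 4 were higher (Pde6b, Pde6g, Rdh12, Aipl1) and 2 lower (Fscn2, Pdc).

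Of the cofactors and upstream regulators, 20 were tested between F0 strains, 6 were higher and 1 lower, with a median of 0.15. Prdm1, a repressor of the bipolar fate, was higher at 1.28, and Samd7, a polycomb-linked protein of rods, was higher at 1.15. Atxn7, a subunit of the SAGA acetyltransferase complex, was lower at -0.34. Between alleles 6 were higher and 2 lower, Atxn7 among them. For the trans component Prdm1 was 0.83, the SUMO ligase gene Pias3 0.63 and Pax6 0.26, while Samd7 was -1.40. Of the relatives of the members, 21 rows were tested, 3 were higher (Mafa at 1.45, Nr2f1 at 0.58, Nr2f2 at 0.46) and 2 lower (Esrrg at -0.49, Thra at -0.23), with a median of -0.10. Mafa averaged only 6.29 count equivalents, under the level of 10 used in the F0 filter, so its value lies near the floor. Between alleles 1 (Mef2a) was higher and 9 were lower. The trans component of Esrrg was -0.31 (limma adjusted p = 0.0292).

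**Figure D5:**
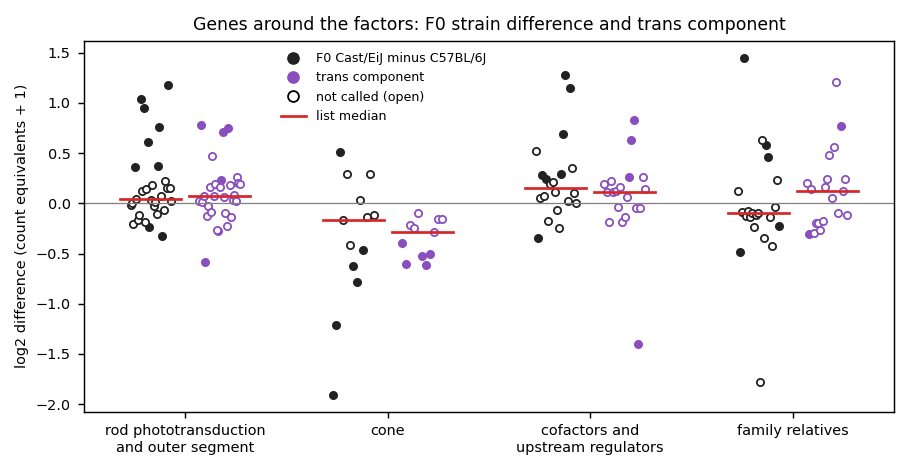
Log2 differences of the genes in 4 lists, between F0 strains (black) and for the trans component (purple), with filled points for adjusted p under 0.05 and red lines for list medians. The cone list sits lowest, at medians of -0.17 and -0.29.

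The genes most like Rorb and Thrb over the 12 libraries were found by the SD of the log2 ratio of their count equivalents to the member's. For Rorb these were Crot, a peroxisomal acyltransferase (0.0595), the copper transporter Slc31a1 (0.0695) and 5930434B04Rik (0.0708), where the median gene gave 0.298. For Thrb they were the Rab regulator Gdi2 (0.0330), the coatomer subunit Copa (0.0435) and Brms1l (0.0468), where the median gene gave 0.257.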

How the data were processed

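Retina mRNA was sequenced as read pairs in 12 libraries. The submitters' processing notes name Trim Galore 0.2.6 and Bowtie 0.12.9. The authors mapped F0 reads to the transcriptome of each strain and F1 reads to a hybrid of both (Ensembl 67, NCBI37), and used MMSEQ. The authors deposited normalised count equivalents, a signal that need not be whole, the natural log of expression with its posterior SD, and unique hits, which are a count. A deposited table of posterior model probabilities and imprinting Bayes factors was left out, with its 36 columns of sample values.

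Limma 3.58.1 was run on log2(count equivalents + 1). Genes on autosomes entered the F0 fit if 3 or more libraries reached 10 count equivalents. They entered the joint fit of all libraries if their allele-specific unique hits averaged 10 or more, and libraries of F1 mice formed blocks whose consensus correlation of 0.1354 was kept in fits that left out a library. P-values were adjusted by Benjamini-Hochberg over all genes tested, with calls at 0.05. EdgeR 4.0.16 and DESeq2 1.42.0 were run on unique hits as alternatives. Wilson intervals are at 95% and cover counting error only. The study describes the replicates as biological, each a pool. The members and lists were chosen with earlier results of these data known. Named are the 10 members, the 2 genes of each list that changed most in either direction between F0 strains (called, averaging 100 count equivalents or more), genes behind counts of 5 or fewer, and the 3 genes most like Rorb and Thrb. The contrasts of F1 with F0 for each allele were added after the data were seen, and were not rerun in the alternative settings. Over all genes tested their medians were 0.0029 for the C57BL/6J allele and -0.00036 for the Cast/EiJ allele. TMM scaling moved the mean log2 level of F0 C57BL/6J libraries by -0.07 to -0.028 and of F1 C57BL/6J alleles by -0.034 to 0.077. For Cast/EiJ these shifts were -0.105 to -0.037 in F0 and -0.002 to 0.063 in F1. Fits were tested on simulated data in R 4.3.3. Some named items are not reported here, and the rod marker sum was limited to 4 markers once the data were known.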

Additional observations from a re-analysis of the deposited data

How the results depend on the processing

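Of the 788 alternative values computed for single factors, 702 kept their direction and their side of the threshold, 40 lost the call, 8 gained one and 38 changed sign, 2 of these with a call in either fit. With edgeR on unique hits the sign changed for the allelic difference of Mef2d (-0.17), the trans component of Nrl (-0.021) and the parent-of-origin values of Mef2d (0.023), Rorb (0.015) and Crx (-0.0049). With unweighted log expression it changed for the allelic difference of Rorb (-0.16) and the parent-of-origin values of Rorb (0.029) and Crx (-0.021), and with posterior weights for the allelic difference of Rorb (-0.16), the trans component of Mef2d (-0.042) and the parent-of-origin values of Rorb (0.037) and Crx (-0.010). With TMM scaling it changed for Crx between F0 strains (-0.019) and the trans component of Nrl (-0.023), and in a single cross for the allelic differences of Mef2d (-0.089, B6xCast) and Nr2e3 (0.010, CastxB6). Without the 3 replicate 1 libraries it changed for Nrl, in the trans component (-0.0068) and for parent of origin (-0.00042). With each library left out in turn, values that changed sign ranged from -0.020 to 0.030 (Otx2), -0.15 to 0.015 (Nrl) and -0.024 to 0.12 (Crx) between F0 strains, from -0.049 to 0.071 between alleles (Mef2d), from -0.076 to 0.089 for the trans component (Nrl), and from -0.19 to 0.086 (Rxrg), -0.041 to 0.024 (Otx2), -0.00042 to 0.0032 (Nrl) and -0.014 to 0.020 (Crx) for parent of origin. The number of factors called between F0 strains was 2 with unweighted log expression and 1 without a filter. The number called for the trans component was 2 without replicate 1 of the 3 groups that deviated together, a setting chosen after seeing the data, where all 4 results were recomputed. With each library left out in turn, it was 3 to 4 between F0 strains, 3 to 4 between alleles, 2 to 5 for the trans component and 0 for parent of origin, and the libraries whose removal gave 2 for the trans component were F0 C57BL/6J replicates 2 and 3, F0 Cast/EiJ replicate 1, F1 B6xCast replicate 2 and F1 CastxB6 replicate 3. Without a filter 3161 genes were called between F0 strains, against 4887, with 34964 genes tested, and the cause was not tested. For parent of origin 66 genes were called, 40 with edgeR, 32 with posterior weights and 38 with a minimum of 50 unique hits. The main fits did not pair the libraries by replicate number. Deviations of same-numbered libraries correlated at -0.115 to 0.326 over 18 pairs, and those of unlike number at -0.269 to 0.173 over 36. The negative values of same-numbered libraries all came from pairs with F1 CastxB6. Between the F0 strains the values were 0.326, 0.03 and 0.137 for replicates 1, 2 and 3. With a replicate block, 6 factors and 6376 genes were called between F0 strains, Mef2d (limma adjusted p = 0.0415) and Neurod1 (0.0118) being added, and 4, 4 and 0 factors in the other comparisons. Depth limits Rxrg, with 26 to 38 allele-specific unique hits per library.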
